A study of Mus musculus with 4 samples.

Results

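The ZNF genes of human chromosome 19 lie in arrays of neighbouring genes along the chromosome. The members were all rows of the deposited count table on chromosome 19 that were protein-coding and whose name was ZNF followed by digits, with or without a final letter. This gave 246 of 58735 gene rows, and no measured value was used to choose them. The cells were Jurkat, a human CD4 T cell leukaemia line, grown in 1640 medium with fetal bovine serum. One group of 2 libraries was wild-type, and the other group of 2 was labelled as a CRISPR-Cas9 knockout of MATR3, the gene of matrin 3, a nuclear protein that binds RNA. The labels do not say whether the knockout-labelled cells were 1 clone or a pool, or whether separate cultures gave the libraries, and the spread that p-values rest on may be technical.

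Zinc finger proteins of this type bind DNA through tandem C2H2 fingers, and many carry a KRAB domain. A KRAB domain recruits TRIM28, which brings in the histone H3 lysine 9 methyltransferase SETDB1 and HP1 proteins, so that the bound site is silenced. Transposable elements are the best known targets. The genes arose by repeated local duplication, so that neighbours on chromosome 19 are often close relatives. Which members carry a KRAB domain was not examined here. The deposited table gave the family zf-C2H2 for 238 of the 246 members.

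The targeted gene and cell type markers were examined before the members. The tested MATR3 row (ENSG00000015479) held 19 and 9 reads in wild-type against 42 and 61 in the knockout-labelled libraries. It was higher in the latter, with a log2 fold change of 2.05 (SE 0.38, edgeR adjusted p = 2.85e-06), which goes against the label. A second MATR3 row overlaps it, with 5 and 1 reads against 2 and 2, and was not tested. How reads were divided between the overlapping rows is uncertain, so the loss of MATR3 could not be checked and the group is called knockout-labelled throughout. Of 13 T cell markers, 12 were lower there, and their summed level was 3657 and 3402 CPM (read counts scaled to a common library size) in wild-type against 1476 and 1439 CPM. All 11 tested of 12 myeloid markers were higher, from a summed 37.5 and 34.7 CPM to 5783 and 5672 CPM, with ELANE and CSF3R at 0 reads in wild-type. Both tested epithelial markers of 5 were higher, from a summed 13.03 and 10.87 CPM to 122 and 123 CPM, with EPCAM and KRT19 at 0. Of 6 B cell markers, 2 were tested, 1 higher and 1 lower, and MS4A1 was at 0 in all libraries, while the summed level went from 16.4 and 14.2 CPM to 9.96 and 8.83 CPM. The 13 mitochondrially encoded genes were all higher, at 5.10% and 4.70% of wild-type counts against 8.90% and 8.75% in the knockout-labelled libraries. The identity of the knockout-labelled libraries is thus in doubt, and every fold change below compares libraries as labelled. The part of these shifts in the results below was not tested. Total counts were 17477643 and 15400214 for wild-type, and 15008554 and 15022788 for knockout-labelled libraries.

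The members were weakly read genes. They took 31113 and 29544 reads in wild-type against 28491 and 29151 in the knockout-labelled libraries. Their summed level was 1786 and 1856 CPM in wild-type against 1944 and 1966 CPM in the knockout-labelled libraries. On that scale both wild-type libraries lay below both of the others. As a share of counts the groups overlapped, at 0.178% and 0.192% in wild-type against 0.190% and 0.194%. At least 1 read was seen for 203 to 209 members per library. In bulk RNA, a smaller number of cells that express a gene and less RNA per cell cannot be told apart.

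Of the 246 members, 30 had 0 reads in all 4 libraries, which allows each a level of up to 0.0477 CPM. That was 12.2% of members, beside 19.8% of all protein-coding genes. Another 33 had between 1 and 39 reads in all and did not pass the expression filter, and 183 were tested. The median level of the tested members was 4.94 CPM, against 11.96 CPM for the tested ZNF genes of other chromosomes and 24.7 CPM for all tested protein-coding genes. Per kilobase of the row's length, the members ranged from 0.0632 to 39.8 CPM, with a median of 0.829 CPM per kb beside 4.65 CPM per kb for protein-coding genes.

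By edgeR's quasi-likelihood test with an adjusted p of 0.05, 84 of the 183 tested members differed between the groups, 45 higher and 39 lower in the knockout-labelled libraries. Over all 15294 tested genes 66.0% passed, 33.7% higher and 32.3% lower. The members' shares were 45.9%, 24.6% and 21.3%. Without the expression filter the shares were 34.7% of 216 members and 33.7% of 28006 genes. This took in rows with few reads, which made up far more of the added genes (15294 to 28006) than of the added members (183 to 216). The near-equal shares are thus not a comparison at like levels. At least 2-fold changes were found for 21 of the 183 tested members upward and 14 downward. In either direction this was 19.1% of members, beside 26.3% of all genes (15.6% upward and 10.7% downward). The median log2 fold change was -0.06 for members and 0.02 for all tested genes, and members moved in both directions. Without knockout replicate 1 fewer members passed in each direction, and the share of all genes that passed was lower too. Members that passed the filter through 1 group alone were bound to differ in level, and without these 13 the counts were 38 higher and 35 lower of 170. The 13 were ZNF844, ZNF296, ZNF114, ZNF577, ZNF350, ZNF615 and ZNF470 through the knockout-labelled libraries, and ZNF93, ZNF829, ZNF568, ZNF573, ZNF613 and ZNF880 through wild-type.

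The share called differed with level. Under 1 CPM, 70.0% of 10 members passed, against 50.3% of other protein-coding genes. That share was largely set by the filter. Its 3 higher calls (ZNF844, ZNF577 and ZNF615) were on members that passed the filter through 1 group alone. So were ZNF93, ZNF829 and ZNF573 among its 4 lower calls. Among members averaging 1 to 2 CPM, 23.3% of 30 passed, against 48.0% of the others at that level. From 2 to 5 CPM it was 35.2% of 54 against 61.4%, and from 5 to 10 CPM 48.6% of 37 against 65.2%. From 10 to 20 CPM the shares were 66.7% of 27 members and 69.3% of the others. From 20 to 50 CPM they were 57.9% of 19 and 73.6%, and from 50 to 1000 CPM 66.7% of 6 and 79.4%. Over all members averaging 5 to 1000 CPM, 57.3% of 89 passed, against 74.1% of 10078 other protein-coding genes. From 1 CPM upward, the ZNF genes of other chromosomes also passed less often than other protein-coding genes in each band. Their shares by band were 30.8%, 46.9%, 55.3%, 60.5%, 66.0% and 71.4%. These lay above the members' shares except at 10 to 20 CPM, where the members' share was higher. The differences between these shares were not tested. The ZNF genes of other chromosomes had 85 higher and 41 lower of 214 tested, with a median log2 fold change of 0.22. The other protein-coding genes of chromosome 19 had 183 higher and 348 lower of 780, with a median of -0.20, so the members' median lay between those of these groups.

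**Figure D1:**
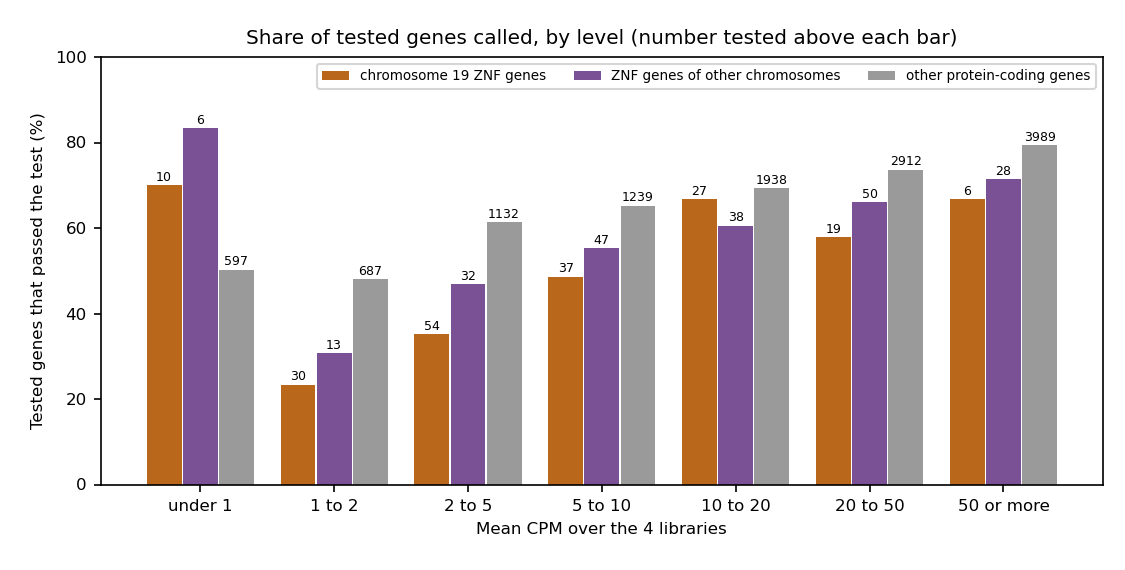
Share of tested genes that passed the test (vertical axis, percent) by mean CPM over the 4 libraries (horizontal axis), for chromosome 19 ZNF genes, ZNF genes of other chromosomes and other protein-coding genes, with the number tested above each bar. The members' bar is lower than the grey bar in each band from 1 CPM upward, and closest at 10 to 20 CPM, with 66.7% against 69.3%. The bar of ZNF genes of other chromosomes is also lower than the grey bar in each of these bands. The last band ends at 1000 CPM.

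Starting a new sub-cluster wherever neighbouring starts lay over 1 Mb apart, 235 members fell into 9 sub-clusters of at least 5, and 11 were isolated. Positions are those of the deposited table, whose genome build is not given in the sources used here. No sub-cluster moved as a block, and each of 7 held calls in both directions. Sub-cluster 1 (ZNF554 to ZNF77, chromosome 19, 2819874 to 2944971) had 0 higher and 2 lower of 4 tested. Sub-cluster 5 (ZNF302 to ZNF792, 34677639 to 34964049) had 1 higher and 0 lower of 5. The count of calls over all genes, 66.0%, is the share to read these against, and the largest share called was 62.5% of 16 in sub-cluster 3.

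**Figure D2:**
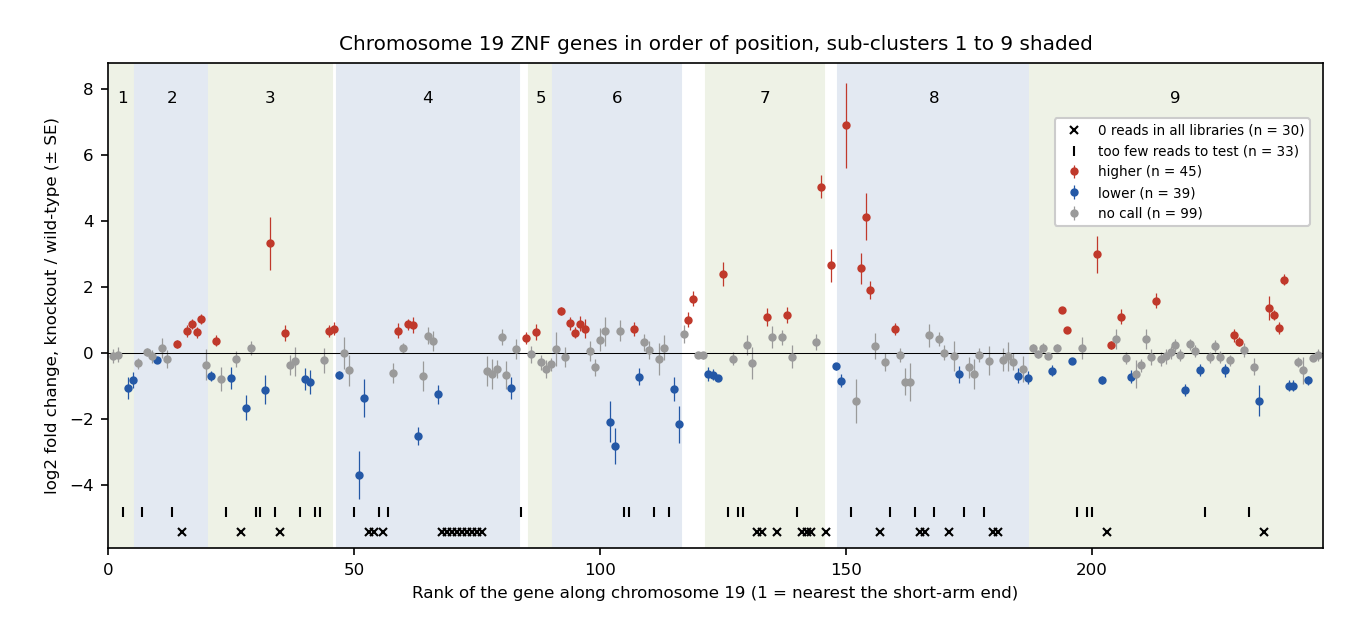
Fitted log2 fold change with its SE (vertical axis) for each tested member in order along chromosome 19 (horizontal axis, rank of the gene), in red if higher, blue if lower and grey if no call, with crosses for 30 members at 0 reads and ticks for 33 too low to test. Red and blue points lie side by side in most sub-clusters, and a row of 9 crosses lies in sub-cluster 4. The highest point, ZNF577, had 0 reads in wild-type, so its fitted value depends on the prior count and is no measured fold.

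**Figure D3:**
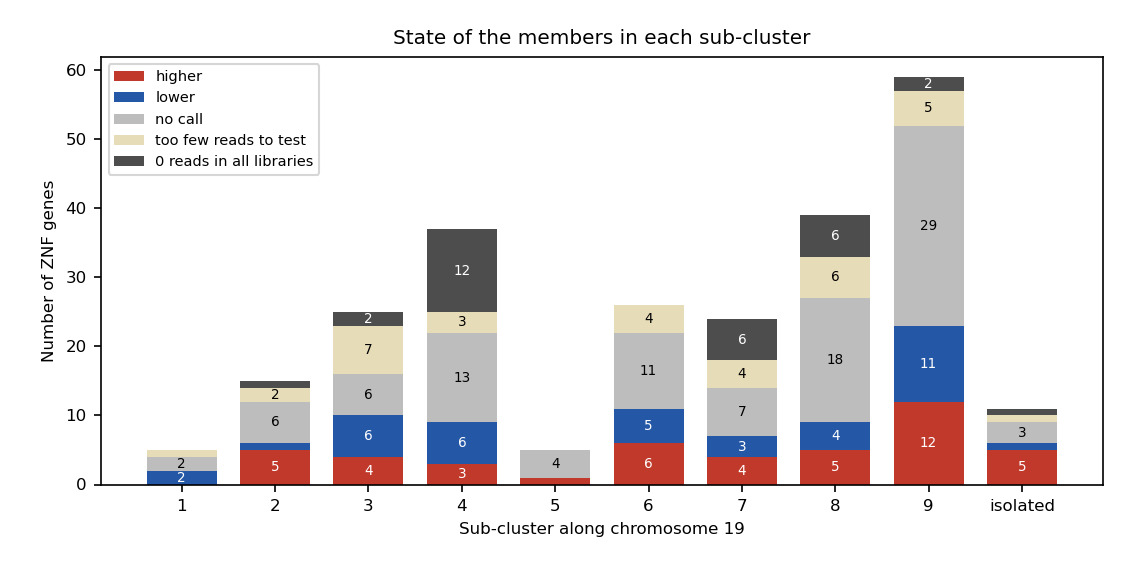
Number of members (vertical axis) in each sub-cluster and among the isolated members (horizontal axis), stacked by state, with counts of 2 or more written in the bars. The dark block at 0 reads is largest in sub-cluster 4, with 12 of 37 members.

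Sub-cluster 4 (ZNF101 to ZNF254, 19668796 to 24129961) held 37 members, of which 12 had 0 reads in all libraries. A run of 9 neighbours had no read at all, from ZNF208 to ZNF728 (21932958 to 23003176): ZNF208, ZNF257, ZNF676, ZNF729, ZNF98, ZNF492, ZNF99, ZNF723 and ZNF728. Of the 22 tested, 3 were higher and 6 lower, and all 5 changes of at least 2-fold were downward, of which ZNF93 passed the filter through wild-type alone. The median log2 fold change was -0.52, the lowest of the 9 sub-clusters.

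ZNF93, which in human cells represses LINE-1 elements, was low in the knockout-labelled libraries. It had 27 and 20 reads in wild-type against 2 and 1 in the knockout-labelled libraries, or 1.40 ± 0.208 and 0.102 ± 0.0488 CPM (SD, n = 2 each). The ratio of levels was 13.9-fold lower, with an exact 95% interval from 4.46 to 69.6 that covers counting error only (edgeR adjusted p = 6.6e-06). ZNF93 passed the filter through wild-type alone, so its direction was fixed by the filter. ZNF738 had 161 and 144 reads in wild-type against 34 and 13 in the knockout-labelled libraries. Its level fell from 9.14 ± 0.14 to 1.60 ± 1.02 CPM (SD, n = 2 each), a log2 fold change of -2.51 (SE 0.27, edgeR adjusted p = 2.96e-13). This value was -3.37 without knockout replicate 1 and -1.97 without knockout replicate 2. The groups did not overlap for either gene.

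ZNF43 fell from 4.19 and 5.59 CPM to 1.71 and 2.43 CPM, a log2 fold change of -1.23 (SE 0.29). In the same sub-cluster ZNF431 rose from 9.41 and 9.36 CPM to 16.2 and 18.4 CPM, a log2 fold change of 0.88 (SE 0.17). ZNF91, which represses SVA elements in human cells, stood at 3.33 and 5.59 CPM in wild-type against 2.66 and 3.78 CPM in the knockout-labelled libraries, so the groups overlapped. Its difference did not pass (log2 fold change -0.46, SE 0.27, edgeR adjusted p = 0.13). The log2 fold change was -0.77 without wild-type replicate 1 and -0.06 without wild-type replicate 2. It was -0.23 without knockout replicate 1 and -0.73 without knockout replicate 2.

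Sub-cluster 7 (ZNF575 to ZNF296, 43525497 to 45076588) held 24 members, 6 of them at 0 reads, with 4 higher and 3 lower of 14 tested. All 4 rises were at least 2-fold and none of the falls was, and ZNF296 among them passed the filter through the knockout-labelled libraries alone. The largest was ZNF296 (ENSG00000170684, 45071500 to 45076588), whose mouse counterpart Zfp296 acts with pluripotency factors. ZNF296 had 8 and 2 reads in wild-type against 157 and 143 in the knockout-labelled libraries. Its level was 0.292 ± 0.236 CPM in wild-type against 10.2 ± 0.756 CPM in the knockout-labelled libraries (SD, n = 2 each), and the log2 fold change was 5.05 (SE 0.35, edgeR adjusted p = 4.76e-22). It was 6.27 without wild-type replicate 1 and 4.43 without wild-type replicate 2. The row overlaps GEMIN7-AS1 on the same strand, so how reads were divided between the pair is uncertain.

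ZNF283 had 12 and 13 reads in wild-type against 56 and 63 in the knockout-labelled libraries, a log2 fold change of 2.41 (SE 0.37). ZNF224, described as a repressor of the aldolase A gene, had 33 and 46 reads against 80 and 71, a log2 fold change of 1.10 (SE 0.28). Between them lie ZNF404, ZNF221 and ZNF155, each with 0 reads in wild-type and reads in both knockout-labelled libraries. ZNF155 had 8 and 11 reads there, 7.16-fold above a floor of 3 counts in the wild-type pair. ZNF221 had 5 and 7 reads, 4.52-fold above that floor. None of these 3 passed the filter. The tested members between ZNF283 and ZNF224 did not pass: ZNF45 (log2 fold change -0.16, SE 0.20), ZNF230 (0.26) and ZNF222 (-0.28).

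At the other end of the sub-cluster, the neighbours ZNF575, ZNF576 and ZNF428 were all lower, with log2 fold changes of -0.62, -0.65 and -0.74. The ZNF575 call was lost without knockout replicate 1 (-0.40). ZNF428 was the member with the third highest level per length, at 61.7 and 58.2 CPM in wild-type against 36.7 and 34.9 CPM in the knockout-labelled libraries. It and ZNF576 overlap SRRM5, and ZNF575 overlaps ETHE1.

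**Figure D4:**
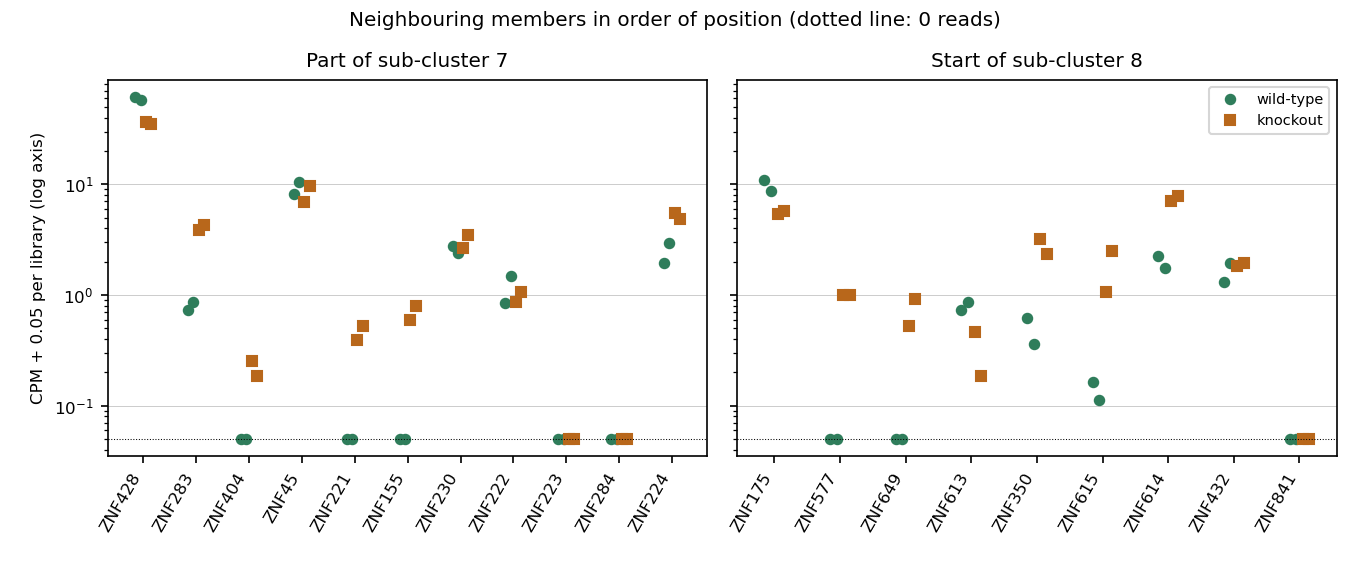
Level in each library (vertical axis, CPM + 0.05 on a log axis) of neighbouring members in order of position (horizontal axis), for part of sub-cluster 7 and the start of sub-cluster 8; circles are the 2 wild-type libraries, squares the 2 libraries labelled knockout, and the dotted line is 0 reads. ZNF577, ZNF649, ZNF221 and ZNF155 sit on the dotted line in wild-type and above it in the knockout-labelled libraries, while ZNF613 between ZNF649 and ZNF350 lies lower in the latter.

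Sub-cluster 8 (ZNF175 to ZNF331, 51571298 to 53580269) held 39 members, with 5 higher and 4 lower of 27 tested, and 4 of the rises but none of the falls were at least 2-fold. Its rises of at least 2-fold all lay near its start, and 3 of these 4 (ZNF577, ZNF350 and ZNF615) passed the filter through the knockout-labelled libraries alone, so that their direction was fixed by the filter. ZNF577 (51804816 to 51890950) had 0 reads in both wild-type libraries and 14 in each of the others, 10.6-fold above the same kind of floor. It was not tested without either knockout-labelled library. ZNF649 next to it had 0 and 0 reads against 7 and 13, 7.54-fold above such a floor, but did not pass the filter. Their rows overlap, so reads of the 2 genes are uncertain. These genes, ZNF404, ZNF221, ZNF155, ZNF613 and ZNF615 were chosen after their values were seen.

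Next come ZNF350, ZNF615 and ZNF614 (51964343 to 52030240), which all rose. ZNF350, a partner of BRCA1 also called ZBRK1, had 10 and 5 reads in wild-type against 46 and 34 in the knockout-labelled libraries, a log2 fold change of 2.58 (SE 0.47, edgeR adjusted p = 1.82e-06). ZNF615 had 2 and 1 reads against 15 and 36, and the ratio of levels was 19.2 with an exact 95% interval from 6.22 to 96.3 that covers counting error only. For both ZNF350 and ZNF615 the direction was fixed by the filter, as said above. ZNF614 went from 1.94 ± 0.343 to 7.39 ± 0.61 CPM (SD, n = 2 each), a log2 fold change of 1.92 (SE 0.26). ZNF613, which lies between ZNF649 and ZNF350, had 12 and 13 reads in wild-type against 6 and 2 in the knockout-labelled libraries (log2 fold change -1.44, edgeR adjusted p = 0.0533).

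The other members with a known role in sub-cluster 8 were lower or did not pass. ZNF175, known as OTK18 and described as a repressor of HIV-1 in macrophages, fell from 10.8 and 8.60 CPM to 5.32 and 5.66 CPM, a log2 fold change of -0.83 (SE 0.20). ZNF331, an imprinted gene, fell from 8.96 and 11.1 CPM to 7.09 and 4.92 CPM, a log2 fold change of -0.73 (SE 0.20), and the call was lost without knockout replicate 2 (-0.49, edgeR adjusted p = 0.119). ZNF160, described as a repressor of the TLR4 gene, stood at 6.43 and 7.85 CPM in wild-type against 6.96 and 6.81 CPM in the knockout-labelled libraries (log2 fold change -0.05, SE 0.21).

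Sub-cluster 9 (ZNF628 to ZNF446, 55476332 to 58481230) was the largest, with 59 members, 52 of them tested, 12 higher and 11 lower. It held about as many rises as falls, and the median log2 fold change was -0.06. It also held the members of highest level per length, ZNF581 and ZNF787. ZNF581 rose from 40.3 and 39.4 CPM to 99.8 and 96.8 CPM, or 23.0 to 56.6 CPM per kb in the group means, a log2 fold change of 1.30 (SE 0.09, edgeR adjusted p = 2.65e-23). ZNF787 rose from 73.2 and 74.8 CPM to 121 and 124 CPM, a log2 fold change of 0.72 (SE 0.08). The row of ZNF581 overlaps that of ZNF580 on the same strand, and ZNF580 did not pass (43.3 ± 0.727 CPM in wild-type against 48.9 ± 3.28 CPM in the knockout-labelled libraries, SD, n = 2 each), so how reads were divided between the pair is uncertain.

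Near the end of the chromosome arm a run of 4 neighbours rose, ZNF329, ZNF274, ZNF544 and ZNF8 (58126252 to 58302805). ZNF274 binds the 3' ends of zinc finger genes in human cells and recruits SETDB1 there. It rose from 11.3 and 12.4 CPM to 26.81 and 25.96 CPM, a log2 fold change of 1.16 (SE 0.15, edgeR adjusted p = 1.56e-10). ZNF8 had 108 and 91 reads in wild-type against 395 and 432 in the knockout-labelled libraries, and its level went from 5.96 ± 0.342 to 28.04 ± 1.54 CPM (SD, n = 2 each), a log2 fold change of 2.23 (SE 0.17, edgeR adjusted p = 1.49e-20). ZNF8 overlaps unnamed transcripts AC020915.1 and AC020915.5. The call on ZNF329 was lost without knockout replicate 2 (1.00), and that on ZNF544 without knockout replicate 1 (0.57).

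Other members of sub-cluster 9 changed in each direction. ZNF470 had 6 and 2 reads in wild-type against 33 and 25 in the knockout-labelled libraries, a log2 fold change of 3.0 (SE 0.57). This value was 3.90 without wild-type replicate 1 and 2.47 without wild-type replicate 2. ZNF470 passed the filter through the knockout-labelled libraries alone. ZNF530 fell from 17.3 and 17.0 CPM to 7.98 and 7.96 CPM, a log2 fold change of -1.11 (SE 0.17). ZNF606 had 24 and 40 reads against 10 and 11 (-1.43, SE 0.47), and the call was lost without wild-type replicate 2 (-0.96, edgeR adjusted p = 0.162) and without knockout replicate 1 (-1.37, edgeR adjusted p = 0.0575). ZNF417 and ZNF587, related genes whose products bind HERV-K elements, differed little between the groups. ZNF587 passed (0.36, SE 0.14), with its call lost without wild-type replicate 1 or knockout replicate 2 (0.30 and 0.25), and ZNF417 did not (0.11, SE 0.22, edgeR adjusted p = 0.661). ZNF132, whose promoter is methylated in some tumours, was not called (-0.51, SE 0.40), and ZNF154, of which the same is known, had 5 and 8 reads against 7 and 13 and was not tested.

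**Figure D5:**
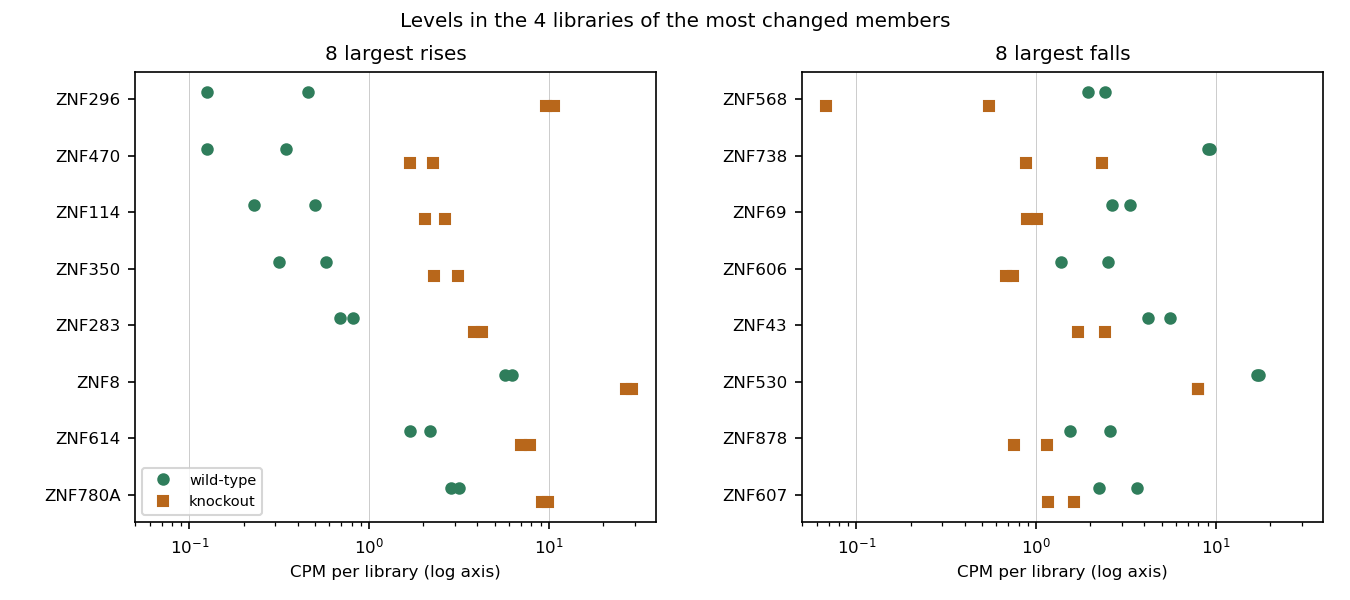
Level in each library (horizontal axis, CPM on a log axis) of the 8 largest rises (left) and 8 largest falls (right) among members that passed, had separate groups and averaged at least 1 CPM; circles are wild-type and squares the knockout-labelled libraries. ZNF296 has the widest gap on the left, from 0.292 to 10.2 CPM in the means, and ZNF568 on the right, from 2.18 to 0.307 CPM. Both passed the filter only through the group where they are high, as did ZNF470, ZNF114 and ZNF350, so their direction was fixed by the filter.

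Sub-cluster 6 (ZNF565 to ZNF573, 36182060 to 37817300) had 6 higher and 5 lower of 22 tested, with 1 rise and 4 falls of at least 2-fold. Of these falls ZNF829, ZNF568 and ZNF573 passed the filter through wild-type alone. ZNF146, whose protein consists almost wholly of zinc fingers, had 291 and 290 reads in wild-type against 600 and 652 in the knockout-labelled libraries, a log2 fold change of 1.28 (SE 0.12, edgeR adjusted p = 4.51e-15). It overlaps ZNF565. The neighbours ZNF260, ZNF529, ZNF382 and ZNF461 (36510695 to 36666853) rose together, with log2 fold changes of 0.91, 0.63, 0.90 and 0.75. Of these, ZNF382, described as a repressor of NF-kB and AP-1 signalling, stood at 3.67 and 4.46 CPM in wild-type against 7.30 and 7.82 CPM in the knockout-labelled libraries. The ZNF529 call was lost without knockout replicate 1, and that of ZNF461 without wild-type replicate 1 or knockout replicate 1.

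Farther along, ZNF568, whose mouse counterpart represses a placental Igf2 transcript, had 42 and 31 reads in wild-type against 8 and 1 in the knockout-labelled libraries. Its log2 fold change was -2.81 (SE 0.55, edgeR adjusted p = 6.31e-06), -4.87 without knockout replicate 1 and -1.98 without knockout replicate 2. ZNF573 had 24 and 27 reads against 5 and 5 (-2.15, SE 0.55). Both ZNF568 and ZNF573 passed the filter through wild-type alone, so their direction was fixed by the filter. ZNF607 had 39 and 58 reads against 17 and 24 (-1.07, SE 0.36), and its call was lost without wild-type replicate 2 (-0.70) and without knockout replicate 1 (-0.85).

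Sub-cluster 2 (ZNF557 to ZNF846, 7069444 to 9793180) had 5 higher and 1 lower of 12 tested. Its 4 neighbours ZNF426, ZNF121, ZNF561 and ZNF562 (9523224 to 9675086) all rose, with log2 fold changes of 0.68, 0.90, 0.64 and 1.04. ZNF562 had 227 and 249 reads in wild-type against 397 and 471 in the knockout-labelled libraries (SE 0.14, edgeR adjusted p = 1.32e-09), and ZNF121 had 211 and 264 against 363 and 425. The ZNF561 call was lost without knockout replicate 2 (0.48). The fall was in ZNF317 (-0.20, SE 0.09, edgeR adjusted p = 0.0452), from 67.2 and 66.3 CPM to 63.9 and 52.6 CPM, and it was lost without wild-type replicate 1 (-0.17), without knockout replicate 2 (-0.06) and under 7 other choices of scaling, test, filter or genes tested.

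Sub-cluster 3 (ZNF653 to ZNF791, 11483427 to 12640098) had 4 higher and 6 lower of 16 tested. ZNF69 had 46 and 53 reads in wild-type against 13 and 15 in the knockout-labelled libraries (-1.64, SE 0.38). ZNF791 rose from 7.58 and 7.98 CPM to 11.3 and 13.6 CPM (0.67, SE 0.19), a call lost without knockout replicate 2 (0.54). ZNF878 had 27 and 41 reads against 11 and 17 (-1.11, SE 0.44), a call lost without wild-type replicate 2 (-0.72) or knockout replicate 1 (-0.84). In sub-cluster 1, ZNF57 fell from 2.87 and 3.45 CPM to 1.30 and 1.75 CPM (-1.05, SE 0.34), lost without wild-type replicate 2 (-0.92) or knockout replicate 1 (-0.85). ZNF77 fell from 8.55 and 6.47 CPM to 5.66 and 2.97 CPM (-0.80, SE 0.23), lost without wild-type replicate 1 (-0.57) or knockout replicate 2 (-0.41). In sub-cluster 5, ZNF181 rose from 3.96 and 3.77 CPM to 5.59 and 6.47 CPM (0.64, SE 0.24), lost without knockout replicate 2 (0.54).

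Of the 11 isolated members 9 were tested, 5 higher and 1 lower, with a median log2 fold change of 0.59. ZNF780A had 50 and 50 reads in wild-type against 144 and 136 in the knockout-labelled libraries (1.66, SE 0.23). ZNF114 had 4 and 8 reads against 30 and 39 (2.67, SE 0.51). This value was 2.22 without wild-type replicate 1 and 3.29 without wild-type replicate 2. ZNF114 passed the filter through the knockout-labelled libraries alone. The fall was in ZNF473, which takes part in U7-dependent processing of histone messages, from 39.3 and 41.0 CPM to 29.5 and 31.6 CPM (-0.39, SE 0.11), and it was lost without knockout replicate 1 (-0.35).

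Tested members that followed each other in order resembled each other only weakly. Within sub-clusters, each tested member was paired with the next tested one, passing over untested members between them. Some of these 165 pairs are thus not direct neighbours. Of the 165, 92 had the same sign of log2 fold change, and Spearman's rho was 0.20, with Pearson's r of 0.10. Neighbours share local base composition, and often sequence, so reads that match several copies may be divided between them. The log2 fold change had a rho of 0.25 with row length over the 183 tested members, and these relations are descriptions without a test. Counts were alike on both strands, with 25 higher and 22 lower of 104 on the plus strand and 20 higher and 17 lower of 79 on the minus strand. Other protein-coding genes that start inside the sub-clusters had 18 higher and 29 lower of 77 tested, and non-coding rows 9 higher and 12 lower of 59.

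Reads found in 1 group alone were as a rule few. No member met the rule of 0 reads in a group and at least 1 CPM in both libraries of the other. With 0 reads in wild-type and reads in both knockout-labelled libraries there were 7 members, ZNF358, ZNF404, ZNF221, ZNF155, ZNF577, ZNF649 and ZNF415. That was 2.85% of members, beside 2.27% of protein-coding genes. The reverse held for ZNF536 and ZNF781, or 0.813% of members beside 0.662%.

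The co-repressor machinery that KRAB zinc finger proteins use was measured through a list of 43 symbols, of which 40 were tested, with 17 higher and 15 lower. The share called, 80.0% over the list, stands beside 70.0% of 12768 tested protein-coding genes. The list had a median level of 66.8 CPM, and of other protein-coding genes averaging 50 to 1000 CPM, 79.4% were called. TRIM28, the KRAB-binding scaffold, stood at 1512 and 1326 CPM in wild-type against 1186 and 1145 CPM in the knockout-labelled libraries (-0.28, SE 0.07, edgeR adjusted p = 0.00055). Its call was lost without knockout replicate 1 (edgeR adjusted p = 0.0805) and without knockout replicate 2 (edgeR adjusted p = 0.159). SETDB1 moved the other way, with a log2 fold change of 2.14 (SE 0.08). ATF7IP, which stabilises SETDB1, rose from 10.4 and 11.1 CPM to 46.9 and 50.8 CPM (2.18, SE 0.13). Other histone H3 lysine 9 methyltransferases of the list moved in both directions. SUV39H1 (-0.38) and SUV39H2 (-0.44) were lower, EHMT2 was higher (0.69) and EHMT1 did not pass. TRIM33, a relative of TRIM28, rose by 1.61 on the log2 scale, while HDAC1, a histone deacetylase, had a log2 fold change of -1.25 and UHRF1 of -1.36. Among HP1 proteins, CBX1 was lower and CBX3 and CBX5 did not pass.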

How the data were processed

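RNA was sequenced from 2 libraries labelled wild-type and 2 labelled MATR3 knockout, all of Jurkat cells per the labels. Raw read counts per gene were used as the authors deposited them, all columns of reads included, with no normalization. The submitters' processing notes name featureCounts 1.5.0-p3, HISAT2 2.0.5 and CASAVA 1.8. As to what each did, the genome build, the strand setting and how multiply matching reads were treated: none of this is given in the sources used here. Although the labels give mouse as the organism, Jurkat is human and each of the 58735 rows has a human Ensembl ID, so values were treated as human. Names, lengths and positions come from the deposited table.

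The test was edgeR 4.0.16 (R 4.3.3): TMM scaling, the default expression filter (10 counts minimum, 15 in total), the two-sided quasi-likelihood test between the groups, no covariate, and Benjamini-Hochberg adjustment over 15294 genes at 0.05. In simulated data of 14176 tested genes, few of them changed, it recovered 72.8% of 92 genes changed 2-fold, and 4 of 160 calls were false. In the real data 66.0% of genes were called, so the simulation does not check the scaling or the false calls under so broad a shift. CPM values use the TMM scaling; a floor is 3 counts over a group. Floors and intervals cover counting error only. A fold against a floor takes the reads of the other group as exact, so it is not a lower bound. Copies of zinc finger genes share sequence, so their counts are uncertain. Chi-square per gene between replicates was 5.83 in wild-type and 2.21 in the other pair, beyond sampling noise. Each library was treated as 1 replicate, but this spread cannot show whether separate cultures gave the libraries.

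Members and lists were chosen with earlier results of these data known. The result of 1 marker list is not reported here. Genes named are the 8 largest rises and falls that passed, did not overlap between groups and averaged at least 1 CPM; the largest of each sub-cluster; the 3 of highest CPM per kb; and members with a known role. Members named outside this rule (the neighbours in runs, ZNF573, ZNF473, ZNF77, ZNF580, ZNF45, ZNF230, ZNF222 and the members read in 1 group alone) were chosen after their values were seen. Alternatives were other scalings, DESeq2 1.42.0, limma 3.58.1 voom, other filters and thresholds, a replicate block, leaving out each library, members overlapping no other row and, added after seeing the data, members averaging at least 5 CPM and members without those that passed the filter through 1 group.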

Additional observations from a re-analysis of the deposited data

How the results depend on the processing

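None of the calls on 43 named genes reversed under the alternatives run, while ZNF160 and ZNF417, which did not pass, changed sign with a library left out. Of 645 values of named genes under alternatives, 598 kept their side of the threshold, 46 lost a call and 1 gained it (ZNF91). The counts of members that passed, 45 higher and 39 lower, ranged from 32 to 50 higher and 25 to 41 lower when 1 library was left out; 28 of the higher and 16 of the lower calls were kept in all 4 such fits. For the ZNF genes of other chromosomes the ranges were 62 to 89 and 27 to 44. The DESeq2 Wald test gave 19 lower members and 26 lower ZNF genes of other chromosomes, and 27.9% of members called beside 43.6% of all genes. At least 2-fold changes were 21 higher and 14 lower for members, 5 and 3 for co-repressors, 29 and 10 for ZNF genes of other chromosomes, and 77 and 90 for the other protein-coding genes of chromosome 19. Members overlapping no other row gave 13 higher and 14 lower, and members averaging at least 5 CPM gave 29 and 22. These smaller counts come from fewer members or a stricter threshold; for DESeq2 the cause was not tested. The higher share of member calls was 53.6% in the edgeR test, 66.1% with DESeq2 and 65.8% without wild-type replicate 2. DESeq2 and testing without a filter moved the median log2 fold change of all genes to 0.15. Without a filter, 34.7% of members were called beside 33.7% of all genes, a set that then took in many more rows with few reads. Same-numbered libraries showed no shared deviation from their group means (correlation 0.0261). With 2 libraries in each group both pairs give the same value by construction, so it cannot show whether the samples were paired. With the replicate number as a block, 83 members were called, and ZNF491 lost its call. Counts within sub-clusters were small, and 77 of 324 of them moved by over 1.5 times under alternatives; with a library left out, lower calls in sub-cluster 4 ranged from 4 to 8. Depth limits the 33 untested members, of 1 to 39 reads in all.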
